A study of Mus musculus with 8 samples.

Results

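A set of 10 transcription factors of the secretory lineages was followed by name through the epithelium of mouse colon tissue, colon assembloids and colon organoids: Atoh1, Gfi1, Spdef, Foxa3 and Creb3l1 for goblet and early secretory cells, Neurog3, Pax4, Neurod1 and Insm1 for enteroendocrine cells, and Pou2f3 for tuft cells. They are 10 of the 32285 genes counted, each matched by its symbol. That matching uses no measured value, but the set was chosen with earlier results of these data known. In the gut epithelium, a progenitor that escapes Notch signalling switches on the bHLH factor Atoh1, which opens the way to the secretory fates. Spdef and the factors around it then serve goblet cells, which make mucus, Neurog3 starts the enteroendocrine programme of hormone-making cells, and Pou2f3 is needed for the chemosensory tuft cells.

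The 6 epithelial libraries came from C57BL/6 mice (males of 6 to 12 weeks per the methods) for which no altered allele is named, 2 libraries each from colon tissue, organoids and assembloids, which the study describes as biological replicates. Tissue crypts were freed with EDTA and dissociated. Organoids are epithelium grown alone in Matrigel, with maintenance medium that holds EGF and A83-01 together with surrogate Wnt, CHIR-99021, R-spondin 1 and noggin. Assembloids are such organoids set into Matrigel droplets with cultured colon stromal cells on an orbital shaker, by default without those last 4 factors, and the labels give neither the medium nor the day of collection for any library, so that medium, stroma and culture cannot be told apart in the comparisons with tissue. Per the methods, assembloids were dissociated with Liberase TL and DNase I and then TrypLE, and organoids with TrypLE only. Stroma, shaking, dissociation and any difference in medium likewise cannot be told apart between organoids and assembloids. A further 2 libraries hold stromal cells of assembloids.

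A UMI marks a counted RNA molecule, and levels are UMIs of a gene per 1000000 UMIs of a pool of cells (CPM). Cells had at least 500 genes and at most 10% mitochondrial UMIs, and cells with immune, fibroblast, endothelial or neural markers were removed, 2131 and 801 of them in the assembloid libraries and 0 to 2 elsewhere. This left 4309 to 27279 cells and 36962634 to 187583982 UMIs per library, with a median of 3391.5 to 35219 UMIs per cell. Both limits together kept 38.7% and 25.4% of the barcodes in tissue, against 55.1% to 89.3% in the other 4 libraries. Epcam, which marks epithelium, was present in every library at 941.4 to 2257 CPM over the kept cells. Between 6 and 70 passing barcodes were shared by any 2 of the 6 libraries.

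The start regions of 4 members are printed with motifs of the bHLH factors and of Rbpj, the DNA-binding partner of Notch. Sites outside the start regions were not searched. Each run holds 300 bases of GRCm38.p6 from RefSeq, from 250 before to 50 after the start site on the strand of the gene, and capitals mark CANNTG, the E-box bound by bHLH factors, or TGGGAA on either strand, the core letters of Rbpj sites. Of the 10 members, 6 matched the table of start regions. The region of Atoh1 (chr6:64728875-64729174, plus strand) held neither motif, that of Spdef (chr17:27728902-27729201, minus strand) held TGGGAA once and no E-box, that of Neurog3 (chr10:62132840-62133139, plus strand) held CAGCTG and that of Neurod1 (chr2:79456587-79456886, minus strand) held CATATG. Among 32851 such regions, 72.3% held CANNTG and 25.6% held TGGGAA on either strand, so a match is common.
Atoh1: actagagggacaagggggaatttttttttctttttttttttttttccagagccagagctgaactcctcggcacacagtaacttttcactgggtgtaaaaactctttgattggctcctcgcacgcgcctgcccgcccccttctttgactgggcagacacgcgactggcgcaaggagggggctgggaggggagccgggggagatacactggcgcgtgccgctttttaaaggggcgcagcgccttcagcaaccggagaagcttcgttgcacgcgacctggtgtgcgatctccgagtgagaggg
Spdef: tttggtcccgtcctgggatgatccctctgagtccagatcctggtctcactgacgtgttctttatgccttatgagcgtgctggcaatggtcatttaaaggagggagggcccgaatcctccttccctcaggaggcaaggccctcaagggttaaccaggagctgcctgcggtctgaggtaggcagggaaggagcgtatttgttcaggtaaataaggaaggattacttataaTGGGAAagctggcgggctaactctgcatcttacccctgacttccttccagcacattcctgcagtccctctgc
Neurog3: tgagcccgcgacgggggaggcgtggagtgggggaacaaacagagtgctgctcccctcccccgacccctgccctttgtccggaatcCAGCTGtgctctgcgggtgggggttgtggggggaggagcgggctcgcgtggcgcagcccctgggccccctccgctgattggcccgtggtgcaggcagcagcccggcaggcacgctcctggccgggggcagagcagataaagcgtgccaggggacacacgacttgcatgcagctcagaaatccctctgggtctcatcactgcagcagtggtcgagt
Neurod1: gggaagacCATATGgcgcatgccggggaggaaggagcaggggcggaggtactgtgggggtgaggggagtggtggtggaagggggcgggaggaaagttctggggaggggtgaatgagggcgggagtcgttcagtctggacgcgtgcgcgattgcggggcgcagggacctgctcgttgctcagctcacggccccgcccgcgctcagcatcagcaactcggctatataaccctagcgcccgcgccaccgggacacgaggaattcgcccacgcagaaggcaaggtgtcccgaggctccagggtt

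Counted in bases from the start site, the E-box of Neurog3 began at -165, that of Neurod1 at -242 and TGGGAA of Spdef at -22. Foxa3 held CAGGTG at -173, and the regions of Gfi1 held CACCTG at -42 from the first start and CAAGTG at -156 from the second. On GRCm38, Atoh1 (ENSMUSG00000073043, chr6:64729125-64731245) and Insm1 (ENSMUSG00000068154, chr2:146221921-146225020) each have 1 exon. Creb3l1 (ENSMUSG00000027230, chr2:91982328-92024502) has up to 12 exons and Pou2f3 (ENSMUSG00000032015, chr9:43123939-43210369) up to 13. Spdef (ENSMUSG00000024215) lies at chr17:27714352-27728955, Foxa3 (ENSMUSG00000040891) at chr7:19013284-19023538 and Pax4 (ENSMUSG00000029706) at chr6:28442334-28449353. Neurod1 (ENSMUSG00000034701, chr2:79452521-79456751) lies inside the span of Cerkl on the same strand, so reads there can be split between them. Gfi1 (ENSMUSG00000029275, chr5:107716657-107726036) and Neurog3 (ENSMUSG00000044312, chr10:62133090-62134763) overlap A430072P03Rik and Fam241b on the opposite strand.

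Relative to tissue, assembloid epithelium carried less RNA of 8 of the 10 members: the goblet and early secretory factors Atoh1, Gfi1, Spdef, Foxa3 and Creb3l1, and the enteroendocrine factors Pax4, Neurod1 and Insm1. None was higher. Changes of any direction were called for 50.0% of all 19303 genes tested, lower levels for 23.2% and higher levels for 26.8%, and the median log2 fold change was -2.02 over the members and 0.03 over all genes. Organoid epithelium was lower than tissue for 6 members, beside 23.1% of genes, and higher for Neurog3, beside 24.5%. The Neurog3 call was lost in each of the 4 fits without an organoid or tissue library, and without the first organoid library 4 members were called instead of 7.

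**Figure D1:**
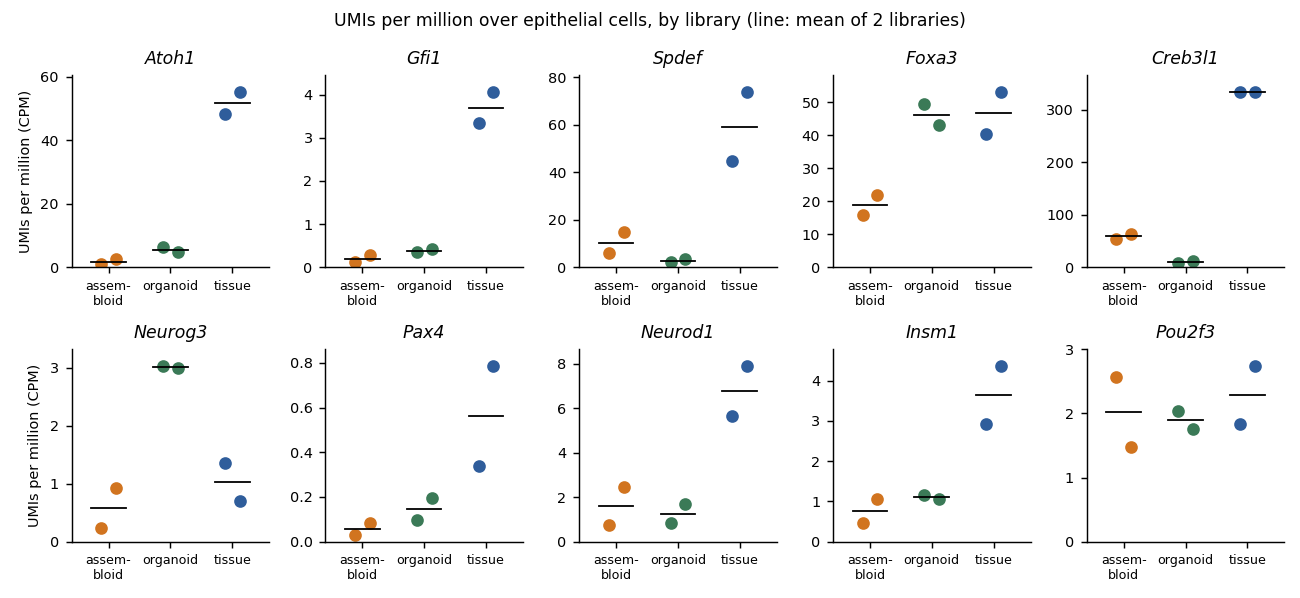
Level of each member in CPM (vertical axis, from 0, one scale per panel) in the 6 epithelial libraries, with a point per library and a bar for the mean of the group. Tissue lies above both cultures for Atoh1, Gfi1, Spdef, Creb3l1, Pax4, Neurod1 and Insm1, organoids lie highest for Neurog3, and the groups overlap for Pou2f3.

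Atoh1, the factor at the head of the secretory lineages, gave 48.4 and 55.2 CPM in the tissue libraries, 6.31 and 4.87 CPM in organoids and 1.08 and 2.53 CPM in assembloids. The groups did not overlap, with means of 51.8 ± 4.80 (SD, n = 2) for tissue, 5.59 ± 1.02 (SD, n = 2) for organoids and 1.81 ± 1.03 (SD, n = 2) for assembloids. The log2 fold change was -4.50 (SE 0.39, edgeR adjusted p = 6.94e-05) for assembloids against tissue and -2.94 (SE 0.36, edgeR adjusted p = 0.000322) for organoids against tissue. Organoids exceeded assembloids by 1.57 (SE 0.35, edgeR adjusted p = 0.00601) on the log2 scale, although without the first organoid library this difference was 1.16 (edgeR adjusted p = 0.0619). A group that lost a library in such a fit was left with 1, which was assumed to vary like the other groups. In such sums, fewer cells of a type and less RNA per cell cannot be told apart, and the cell classes are taken up below.

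Gfi1, a repressor that acts after Atoh1, stood at 0.115 and 0.296 CPM in assembloids, 0.347 and 0.419 CPM in organoids and 3.34 and 4.06 CPM in tissue. Tissue lay above both cultures, with log2 fold changes of -3.84 (SE 0.48, edgeR adjusted p = 0.000398) in assembloids and -3.03 (SE 0.46, edgeR adjusted p = 0.00092) in organoids. The values of the cultures rest on 19 to 65 UMIs per library, and the difference between them, 0.81 (SE 0.46), did not pass the test (edgeR adjusted p = 0.167). With the first assembloid library alone it was 1.499 and passed (edgeR adjusted p = 0.0232).

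Spdef, which drives goblet cell maturation, and Creb3l1, a factor of the secretory pathway, had another order, with organoids lowest. Spdef gave 5.94 and 14.8 CPM in assembloids, 2.19 and 3.54 CPM in organoids and 44.6 and 73.8 CPM in tissue. Creb3l1 gave 54.1 and 64.5 CPM in assembloids, 7.80 and 11.8 CPM in organoids and 334.0 and 333.6 CPM in tissue. For both genes the 3 groups did not overlap. Against tissue, the log2 fold changes of Spdef were -2.18 (SE 0.39, edgeR adjusted p = 0.00213) in assembloids and -4.16 (SE 0.42, edgeR adjusted p = 0.00012) in organoids. Those of Creb3l1 were -2.12 (SE 0.22, edgeR adjusted p = 0.000146) and -4.87 (SE 0.24, edgeR adjusted p = 5.92e-06). Organoids were lower than assembloids for Spdef by -1.99 (SE 0.39, edgeR adjusted p = 0.00305) and for Creb3l1 by -2.76 (SE 0.22, edgeR adjusted p = 6.49e-05). Atoh1 thus lay higher in organoids than in assembloids, while Spdef and Creb3l1 lay lower.

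Foxa3, a forkhead factor of goblet and enteroendocrine cells, was the member whose organoid and tissue levels overlapped while assembloids lay below. It stood at 15.9 and 21.8 CPM in assembloids, 49.3 and 43.0 CPM in organoids and 40.2 and 53.0 CPM in tissue. The assembloids were lower than tissue by -0.94 (SE 0.25, edgeR adjusted p = 0.0131) and the organoids higher than assembloids by 1.18 (SE 0.25, edgeR adjusted p = 0.00410), whereas organoids against tissue gave 0.25 (SE 0.24, edgeR adjusted p = 0.433). The lower level in assembloids did not pass without the first assembloid library (-0.80, edgeR adjusted p = 0.0826), without the second tissue library (-0.73, edgeR adjusted p = 0.130) or with cells of up to 20% mitochondrial UMIs (-0.56, edgeR adjusted p = 0.134).

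Neurog3, the factor that starts the enteroendocrine programme, stood apart. It gave 0.241 and 0.925 CPM in assembloids, 3.02 and 2.9999 CPM in organoids and 1.36 and 0.703 CPM in tissue, so that organoids were highest and assembloids overlapped with tissue. The difference of organoids was 1.79 (SE 0.57, edgeR adjusted p = 0.0313) against tissue and 2.31 (SE 0.57, edgeR adjusted p = 0.00937) against assembloids. Assembloids against tissue gave -0.52 (SE 0.58, edgeR adjusted p = 0.480). Against tissue, the higher level in organoids was 1.59 without the first organoid library (edgeR adjusted p = 0.156), 1.97 without the second (0.0812), 2.35 without the first tissue library (0.0512) and 1.41 without the second (0.171), and thus passed in none of these 4 fits. Against assembloids it was 2.10 without the first organoid library (edgeR adjusted p = 0.0686), and it was 1.66 and 3.42 without the first and the second assembloid library, where it passed (edgeR adjusted p = 0.0138 and 0.000401).

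Of the enteroendocrine factors that act after Neurog3, Neurod1 and Insm1 were lower than tissue in both cultures and Pax4 in assembloids. Neurod1, a bHLH factor of differentiating enteroendocrine cells, stood at 0.754 and 2.45 CPM in assembloids, 0.837 and 1.69 CPM in organoids and 5.65 and 7.87 CPM in tissue. Insm1, a zinc finger factor of endocrine cells, stood at 0.453 and 1.06 CPM, 1.15 and 1.06 CPM, and 2.91 and 4.36 CPM in the same order. In both genes tissue lay above the cultures, and for Neurod1 the cultures overlapped. Against tissue, Neurod1 gave -1.75 (SE 0.50, edgeR adjusted p = 0.0179) in assembloids and -2.23 (SE 0.50, edgeR adjusted p = 0.00676) in organoids. Insm1 gave -1.92 (SE 0.45, edgeR adjusted p = 0.00770) and -1.45 (SE 0.44, edgeR adjusted p = 0.0243). Organoids against assembloids gave -0.48 (SE 0.49, edgeR adjusted p = 0.430) for Neurod1 and 0.47 (SE 0.44, edgeR adjusted p = 0.387) for Insm1.

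Pax4, a paired-homeobox factor of serotonin and somatostatin cells, was the scarcest member in UMIs. Tissue held 16 and 29 UMIs of it, or 0.340 and 0.785 CPM. Organoids held 18 UMIs in either library, or 0.0960 and 0.194 CPM, and assembloids 5 and 9 UMIs, or 0.0302 and 0.0833 CPM. The groups did not overlap. Assembloids gave -2.97 against tissue (SE 0.70, edgeR adjusted p = 0.00816), and organoids gave -1.76 (SE 0.64), just short of the threshold (edgeR adjusted p = 0.0505), which it passed under 8 of the alternatives, among them cells of up to 5% mitochondrial UMIs (-2.95, edgeR adjusted p = 0.00541). With cells of up to 20% it gave -0.88 (edgeR adjusted p = 0.275). Organoids against assembloids gave 1.21 (SE 0.70, edgeR adjusted p = 0.172).

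The calls of the enteroendocrine members depended on single libraries and on the mitochondrial limit. Without the second tissue library, Pax4 (-2.26, edgeR adjusted p = 0.102), Neurod1 (-1.50, 0.0929) and Insm1 (-1.61, 0.0582) no longer passed in assembloids against tissue, and 4 members were left. With cells of up to 20% mitochondrial UMIs, Neurod1 (-0.96, edgeR adjusted p = 0.109) and Insm1 (-1.14, 0.0625) did not pass, and 5 members were left. Without the second assembloid library, assembloids were lower for all 4 enteroendocrine members, Neurog3 at -1.62 (edgeR adjusted p = 0.0213) among them, and Neurog3 was also called lower with cells of up to 5% mitochondrial UMIs (-1.73, edgeR adjusted p = 0.0107). In organoids against tissue, Neurod1 (-1.94, edgeR adjusted p = 0.0745) and Insm1 (-1.71, 0.0725) were lost without the first organoid library, and Insm1 also without the second organoid (-1.23, 0.138) or the second tissue library (-1.12, 0.171) and with cells of up to 20% mitochondrial UMIs (-0.74, 0.201). Between the cultures, Neurod1 was lower in organoids by -1.08 without the first assembloid library (edgeR adjusted p = 0.0348), in a fit where assembloids were 1 library, and the full fit did not call it.

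Pou2f3, the tuft cell factor, stood at 2.56 and 1.47 CPM in assembloids, 2.04 and 1.76 CPM in organoids and 1.83 and 2.73 CPM in tissue. All 3 groups overlapped, with 0.24 (SE 0.43, edgeR adjusted p = 0.659) for assembloids and 0.01 (SE 0.43, edgeR adjusted p = 0.997) for organoids against tissue and -0.24 (SE 0.42, edgeR adjusted p = 0.657) between the cultures. Unscaled, the mean was 2.02 CPM in assembloids and 2.28 CPM in tissue, so the positive sign there arose with the scaling between libraries (TMM). In the first assembloid library, 162 of the 425 Pou2f3 UMIs sat in a single barcode with 18810 UMIs and 3514 genes, in which 0 of 13 tuft markers was seen, while no other cell there held more than 5. Without that barcode the library stood at 1.59 CPM.

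**Figure D2:**
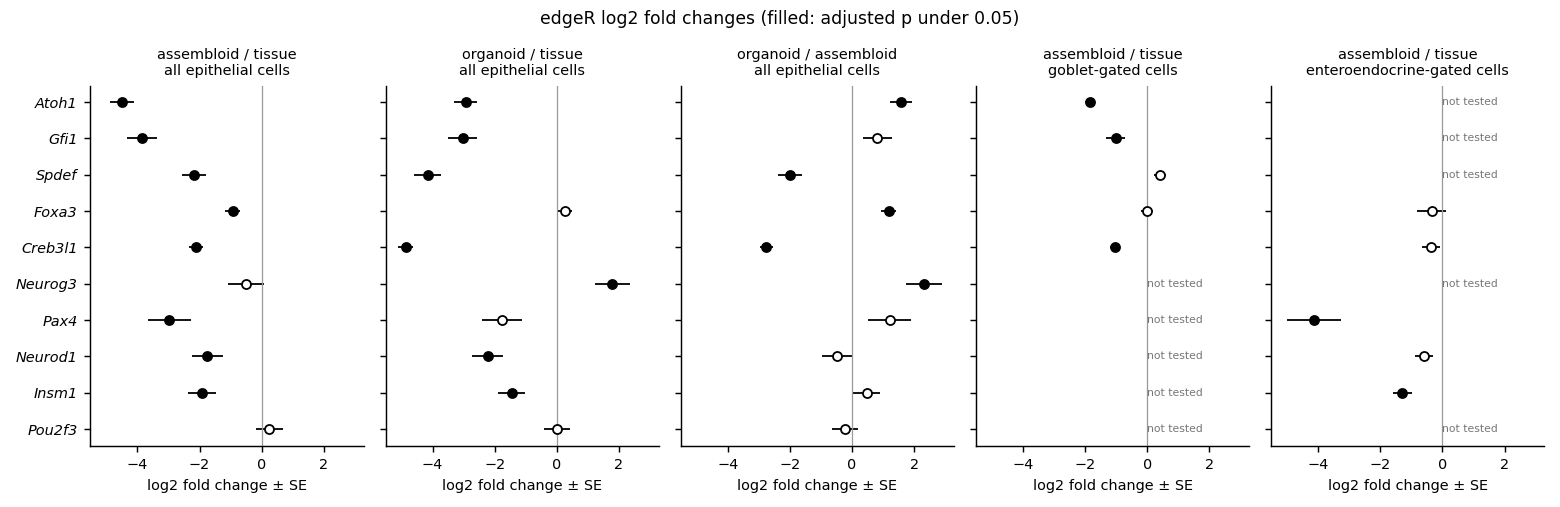
log2 fold change of each member (points, with bars of 1 SE) in the comparisons over whole libraries and within gated cells, with filled points for an adjusted p under 0.05 and open points for the rest. Atoh1 lies at -4.50 over whole libraries and at -1.83 within goblet-gated cells of assembloids against tissue, whereas Spdef lies at -2.18 and at 0.40. The positive sign of Spdef in these cells arose with TMM scaling, since its unscaled mean was 151 CPM in assembloids and 172 CPM in tissue. The point of Pax4 in enteroendocrine-gated cells rests on 0 and 1 assembloid UMIs and is no bound.

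Of the members tested in organoids against tissue, 7 of 10 were called beside 47.6% of all genes, 6 lower (23.1% of genes) and 1 higher (24.5%), with a median of -1.998 over the members and 0.06 over all genes. In organoids against assembloids, 5 of 10 were called beside 53.8% of genes. The levels of Atoh1, Foxa3 and Neurog3 were higher in organoids (3 of 10, against 24.8% of genes) and those of Spdef and Creb3l1 lower (2 of 10, against 29.0%), with a median of 0.64 and -0.01. The 3 comparisons share libraries with each other and are not independent.

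To see in which cells the members sat, cells of at least 2000 UMIs were gated on markers, none of which is a member. A goblet gate took cells with at least 4 of 11 goblet markers (Muc2, Fcgbp, Tff3 and others) making up 3.2% of UMIs. The enteroendocrine gate used 14 genes such as Chga and Pyy at 0.8%, the tuft gate 13 genes such as Dclk1 and Trpm5 at 0.4%, and the colonocyte gate 9 genes such as Aqp8 and Slc26a3 at 1.6%, and the levels of these limits were set after the marker sums had been seen. Of the rest, cells were called cycling by mitotic genes or crypt base by Lgr5, Ascl2 and others, and all further cells are named ungated. From tissue, 551 and 592 cells passed the goblet gate, 39 and 64 the enteroendocrine gate and 6 and 18 the tuft gate. The assembloid libraries gave 240 and 266 goblet-gated, 37 and 37 enteroendocrine-gated and no tuft-gated cells. Organoids gave 10 goblet-gated cells in either library, 2 and 8 enteroendocrine-gated cells and 1 tuft-gated cell in all. Sizes of the gated classes are not compared between groups. Goblet markers also reached a median of 222 and 202 of every 10000 UMIs in tissue cells under 2000 UMIs, which no gate used, beside the limit of 320 in 10000 for the gate.

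Most UMIs of Atoh1, Gfi1 and Spdef in tissue lay in goblet-gated cells. The gate held 76.7% and 71.6% of Atoh1, 74.5% and 68.7% of Gfi1 and 72.5% and 69.6% of Spdef. For Foxa3 the share was 58.9% and 62.1%, and for Creb3l1 44.4% and 46.0%, while the gate held 22.7% and 25.4% of all UMIs of these libraries. In assembloids, where its share of all UMIs was 1.47% and 5.46%, the gate held 34.6% and 72.3% of Atoh1 UMIs and 32.7% and 62.9% of Spdef UMIs, but 5.65% and 23.4% of Foxa3. In organoids, with 10 goblet-gated cells per library, it held 2.70% and 3.31% of Atoh1, beside 0.124% and 0.174% of all UMIs. A further 35.2% and 36.9% of Atoh1 UMIs lay in cycling cells and 58.9% and 41.5% in ungated cells. These classes held 39.7% and 32.0%, and 58.6% and 56.5%, of all organoid UMIs, so that Atoh1 was spread over them much as all UMIs were, apart from a lower ungated share in the second library. Crypt base cells of organoids held 3.13% and 9.71% of Atoh1 UMIs, above their 1.46% and 6.77% of all UMIs.

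**Figure D3:**
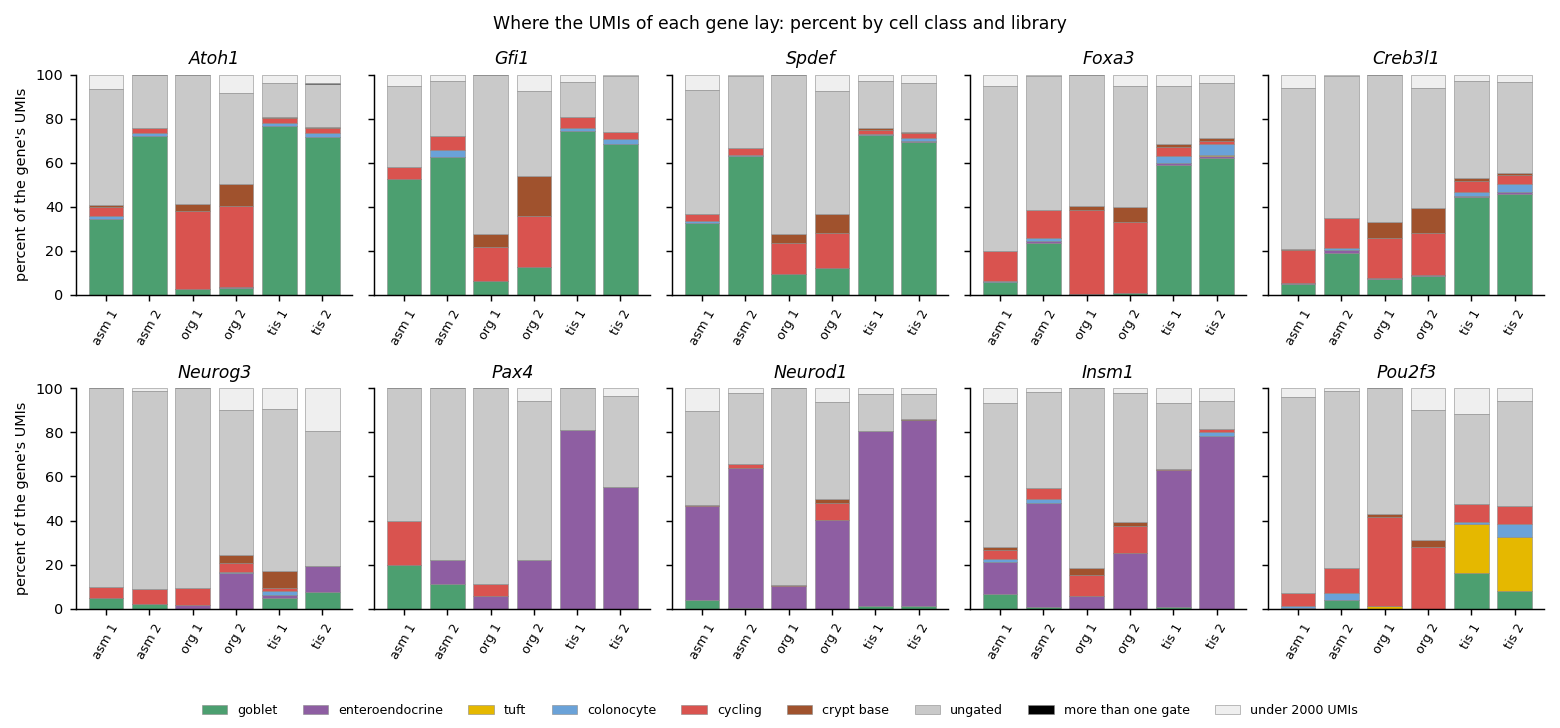
Share of the UMIs of each member (stacked bars, percent of its UMIs in the library) held by each gated class in the 6 libraries. In tissue the goblet gate holds 71.6% to 76.7% of Atoh1 UMIs and the enteroendocrine gate 79.3% and 84.5% of Neurod1 UMIs. In organoids most UMIs of both lie outside these gates, which there hold 0.124% and 0.174%, and 0.0213% and 0.0976%, of all UMIs.

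Within goblet-gated cells, 3 of the 5 members tested were lower in assembloids than in tissue: Atoh1, Gfi1 and Creb3l1. Changes were called for 48.4% of the 12554 genes tested, lower levels for 22.7% and higher levels for 25.7%, with a median of -1.02 over the 5 members and -0.04 over all genes. Atoh1 stood at 25.4 and 33.6 CPM in assembloid goblet-gated cells and at 163 and 155 CPM in those of tissue. The groups were far apart, and the log2 fold change was -1.83 (SE 0.16, edgeR adjusted p = 6.80e-05). In colonocyte-gated cells, a class of absorptive cells that should lack Atoh1, it stood at 0.624 and 0.528 CPM in assembloids and 3.45 and 5.88 CPM in tissue.

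Creb3l1 stood at 182 and 226 CPM in goblet-gated cells of assembloids and at 653 and 603 CPM in those of tissue, a difference of -1.03 (SE 0.16, edgeR adjusted p = 0.00117). Gfi1 stood at 4.10 and 3.39 CPM on 10 and 20 UMIs, against 10.9 and 10.96 CPM on 117 and 103 UMIs. Its difference of -1.02 (SE 0.30, edgeR adjusted p = 0.0221) passed in the full fit but not without the second assembloid library (-0.80, edgeR adjusted p = 0.147), the first tissue library (-1.01, 0.166) or the second (-0.99, 0.160). Spdef, by contrast, stood at 132 and 170 CPM in assembloids and 142 and 202 CPM in tissue, so that the groups overlapped. Its difference was 0.40 (SE 0.20, edgeR adjusted p = 0.125) after TMM scaling, and 0.51 with the second assembloid library alone. Unscaled, the mean of Spdef was lower in assembloids, at 151 against 172 CPM in tissue, so the positive sign arose with the scaling. The same scaling entered the differences of the other members in this gate. Foxa3 stood at 61.0 and 93.7 CPM against 104 and 130 CPM, with a scaled difference near 0 (SE 0.19, edgeR adjusted p = 0.997). The goblet-gated cells had a median of 9779.5 and 20269.5 UMIs in assembloids and 18919 and 15788 in tissue, and their goblet markers made up a median of 511 and 560 of every 10000 UMIs against 629 and 585. The part of these differences in the result was not tested.

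**Figure D4:**
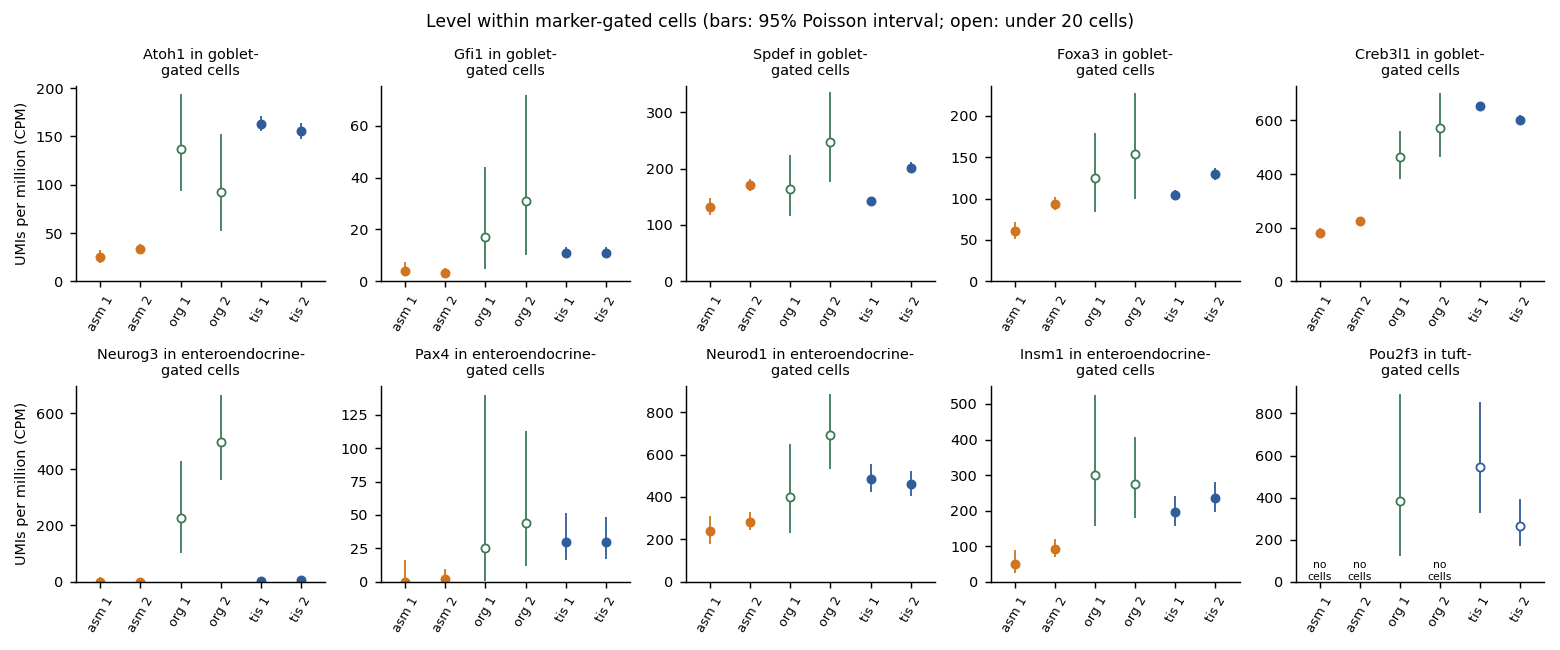
CPM of members within goblet-gated, enteroendocrine-gated and, for Pou2f3, tuft-gated cells (points, one per assembloid, organoid and tissue library, with 95% Poisson intervals for counting error only, and open points where the gate held under 20 cells). Assembloid Atoh1 lies at 25.4 and 33.6 CPM under 163 and 155 CPM in tissue, while Spdef overlaps at 132 and 170 against 142 and 202 CPM.

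The 10 goblet-gated cells of each organoid library were too few for a test. Their Atoh1 stood at 137 and 92.5 CPM on 32 and 15 UMIs, between the assembloid and the tissue values, and their Spdef at 163 and 247 CPM on 38 and 40 UMIs. Outside the goblet gate, organoid Atoh1 stood at 5.61 and 5.62 CPM in cycling and 6.34 and 3.58 CPM in ungated cells. The same 2 classes held 20.6 and 43.4 CPM, and 14.7 and 22.7 CPM, in tissue, and 0.349 and 0.564 CPM, and 0.721 and 0.787 CPM, in assembloids. In both classes tissue was highest and assembloids lowest, as over whole libraries, and these class levels are given without a test. Crypt base cells, also untested, had a mean Atoh1 of 10.3 ± 4.61 CPM (SD, n = 2) on 81 UMIs in organoids. In tissue it was 19.7 ± 0.244 CPM (SD, n = 2) on 20 UMIs, and assembloids held only 7 such cells. Goblet markers were also higher outside the gate in tissue, with a median of 27.6 and 35.5 of every 10000 UMIs in cycling and 27.8 and 90.2 in ungated cells, against 5.33 and 7.71, and 7.29 and 7.39, in assembloids and 0.822 and 1.61, and 0.992 and 1.75, in organoids, and their part in these levels was not tested. Among organoid cells with at least 2 Atoh1 UMIs, 35.7% of 244 and 38.2% of 68 passed the cycling markers, beside 33.4% and 28.9% of all cells of at least 2000 UMIs. In tissue the shares were 6.68% of 434 and 5.16% of 407, beside 5.65% and 2.96%. In assembloids they were 0 of 20 and 0 of 60, beside 9.11% and 10.5%. The goblet gate held 15 of 20 and 48 of 60 such cells in assembloids, 343 of 434 and 315 of 407 in tissue, and 6 of 244 and 4 of 68 in organoids. Cells with at least 2 Atoh1 UMIs had a median of 34818 and 23756.5 UMIs in organoids and 22283 and 18431 in tissue. All cells of at least 2000 UMIs had 35595.5 and 16714, and 17080 and 10422.5, and the part of depth in the cycling shares was not tested.

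UMIs of Creb3l1 and Foxa3 were also found outside the goblet gate, in the classes whose goblet markers are given above. Creb3l1 stood at 290 and 289 CPM in ungated and 294 and 445 CPM in cycling cells of tissue. In assembloids these were 50.5 and 54.3 CPM, and 66.8 and 75.8 CPM. Organoids held 8.88 and 11.4 CPM, and 3.59 and 7.03 CPM. The order of the groups was thus the same in both classes, and it was also that of the goblet markers there, with the part of the latter not tested. In colonocyte-gated cells Creb3l1 was lower than in the ungated cells of the same library, at 48.0 and 71.3 CPM in tissue and 11.2 and 15.7 CPM in assembloids. Foxa3 in ungated cells stood at 50.0 and 42.0 CPM in organoids, above 20.97 and 27.9 CPM in tissue and 15.1 and 17.3 CPM in assembloids. These class levels are given without a test.

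Atoh1 and Spdef were seen together in tissue. Of the 686 and 766 tissue cells with an Atoh1 UMI, among those of at least 2000 UMIs, 68.7% and 68.4% also held Spdef, which was found in 28.3% and 31.6% of all such cells. In assembloids 71.4% of 133 Atoh1 cells in the second library and 30.1% of 136 in the first held Spdef, beside 7.90% and 2.75% of all cells. Read the other way, 7.17% of 572 and 19.5% of 486 assembloid cells with Spdef held Atoh1, beside 0.654% and 2.16% of all cells, while in tissue these were 68.3% of 690 and 59.9% of 875. Most assembloid cells with Spdef thus had no Atoh1 UMI. Such shares move with depth, and the cells of at least 2000 UMIs had a median of 4699 and 15611 UMIs in assembloids and 17080 and 10422.5 in tissue. The first assembloid library was thus the shallowest of the 4, and the part of depth in these shares was not tested.

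In the enteroendocrine gate of tissue and assembloids, the later factors Neurod1 and Insm1 were abundant. Neurog3 was scarce there, with 1 and 3 UMIs in tissue (2.30 and 5.61 CPM) and 0 in either assembloid library. Pax4 was scarce in the gate of assembloids as well, with 1 UMI in all. The 2 and 8 gated organoid cells held 9 and 45 Neurog3 UMIs, or 226 and 496 CPM. The gate held 79.3% and 84.5% of Neurod1 UMIs, 62.0% and 78.3% of Insm1 UMIs and 81.2% and 55.2% of Pax4 UMIs in tissue. It held 1.56% and 11.5% of Neurog3 UMIs there, beside 0.924% and 1.45% of all UMIs, and 73.4% and 61.5% lay in ungated cells, beside 50.8% and 47.7% of all UMIs. In assembloids the gate held 42.4% and 63.4% of Neurod1, 14.7% and 47.0% of Insm1 and 0% and 11.1% of Pax4 UMIs, beside 0.135% and 0.549% of all UMIs. Neurod1 was at 0 UMIs in all colonocyte-gated cells.

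Within the gate, 2 of the 5 members tested were lower in assembloids than in tissue, Insm1 and Pax4, beside calls for 24%, lower levels for 12.3% and higher levels for 11.6% of 7289 genes, with a median of -0.59 over the members and -0.02 over all genes. Insm1 stood at 49.2 and 91.0 CPM in assembloids, under 196 and 236 CPM in tissue. Its log2 fold change was -1.29 (SE 0.32, edgeR adjusted p = 0.00872), and without the second tissue library -1.20 (edgeR adjusted p = 0.0994). Pax4 was called (edgeR adjusted p = 0.00345) on 0 and 1 UMIs in assembloids, or 0 and 1.68 CPM, against 13 and 16 UMIs and 29.9 and 29.9 CPM in tissue. Pax4 passed the filter on low counts only through tissue, the group where it is high, though it was also called without that filter. It was not called without the first tissue library (edgeR adjusted p = 0.0882) and was not tested without the second, and DESeq2 called neither gene (adjusted p = 0.0623 for Pax4 and 0.0678 for Insm1). Neurod1 stood at 237 and 283 CPM against 485 and 460 CPM, and its difference of -0.59 (SE 0.29) did not pass (edgeR adjusted p = 0.157). Foxa3 and Creb3l1 gave -0.35 (SE 0.47, edgeR adjusted p = 0.647) and -0.36 (SE 0.29, edgeR adjusted p = 0.409) in these cells. The gated cells had a median of 3302 and 12312 UMIs in assembloids and 9027 and 6770.5 in tissue, and enteroendocrine markers at a median of 163 and 270.0 of every 10000 UMIs against 343 and 256. The first assembloid library, where Insm1 was lowest, was thus also the lowest in both, and the part of this was not tested.

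Neurog3 UMIs were concentrated in few cells. In the first organoid library, 24 cells with at least 5 UMIs held 539 of 567 Neurog3 UMIs, and in the second, 12 cells held 196 of 279. In tissue, 4 cells held 40 of 64 and 1 cell held 8 of 26. In assembloids, 2 cells held 21 of 40 and 4 cells held 81 of 100, of which a single cell held 39. These levels therefore rest on few cells in every library, and most of those cells passed no enteroendocrine gate, since 90.5% and 65.6% of Neurog3 UMIs in organoids and 90.0% and 90.0% in assembloids were ungated, beside 58.6% and 56.5%, and 78.6% and 76.4%, of all UMIs.

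**Figure D5:**
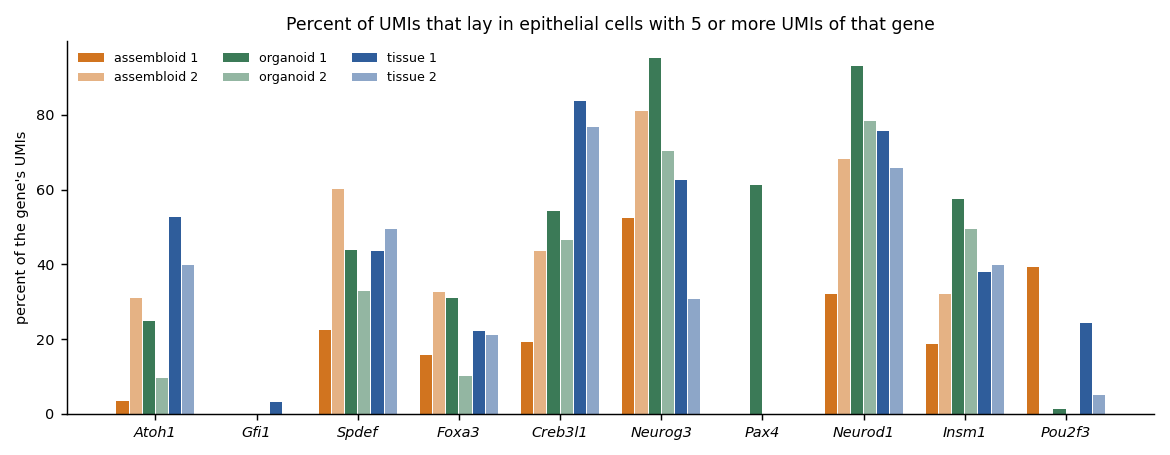
Percent of the UMIs of each member (vertical axis) that lay in cells with at least 5 of its UMIs, per library. Neurog3 reaches 95.1% and 70.3% in organoids and 81.0% in the second assembloid library.

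UMIs of the later factors were found in a larger share of cells with a Neurog3 UMI than of all cells, as a description of few cells. Among cells of at least 2000 UMIs, Insm1 was found in 24 of 46 and 15 of 57 Neurog3 cells of organoids, or 52.2% and 26.3%, beside 1.76% and 1.02% of all cells. In tissue it was in 9 of 18 and 3 of 12, beside 1.93% and 2.17% of all cells, and in assembloids in 6 of 15 and 6 of 17, beside 0.226% and 0.943%. In colonocyte-gated cells, which should lack Insm1, it was found in 0 to 3 of the 331 to 377 cells of each tissue and assembloid library, at most 0.855%. Neurod1 was in 19.6% and 17.5% of Neurog3 cells in organoids, beside 0.315% and 0.542% of all cells, in 22.2% and 33.3% in tissue, beside 1.97% and 2.49%, and in 13.3% and 17.6% in assembloids, beside 0.279% and 1.07%. Depth is given only for cells with at least 2 Neurog3 UMIs, not for all cells of these shares. There were 28 and 18 such cells in organoids, 7 and 2 in tissue and 7 and 9 in assembloids. Their median was 20457 and 11907.5 UMIs in organoids, 8455 and 9004 in tissue and 11288 and 18114 in assembloids. All cells of at least 2000 UMIs had 35595.5 and 16714, 17080 and 10422.5, and 4699 and 15611. The cells with at least 2 Neurog3 UMIs were thus deeper in both assembloid libraries and shallower in the other 4. Atoh1 was in 9 of 46 and 4 of 57 Neurog3 cells of organoids and in 3 of 18 and 2 of 12 of tissue, and among the 15 and 17 of assembloids none had an Atoh1 UMI.

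Pou2f3 was high in tuft-gated cells, at 546 CPM over 6 cells and 265 CPM over 18 cells of tissue, on 19 and 25 UMIs, and at 382 CPM in the single tuft-gated organoid cell, on 5 UMIs. The tuft gate held 22.1% and 24.8% of Pou2f3 UMIs in tissue, beside 0.0740% and 0.255% of all UMIs. A further 40.7% and 47.5% lay in ungated cells at 1.47 and 2.72 CPM, beside 50.8% and 47.7% of all UMIs. No assembloid cell passed the tuft gate, yet the ungated cells there held 2.91 and 1.55 CPM, of which the first includes the single barcode with 162 UMIs. Enteroendocrine-gated cells held 0 Pou2f3 UMIs in all 6 libraries.

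Further regulators of the secretory lineages were followed as lists. Of 13 other enteroendocrine transcription factors, 11 were lower and 1 higher in assembloids than in tissue (median -2.40), beside 23.2% and 26.8% of all genes, or 8 lower and 0 higher without the second and 10 lower and 0 higher without the first tissue library. Among those lower were Mnx1 (-5.30, SE 0.54, edgeR adjusted p = 0.000144) and St18 (-3.69, SE 0.40, edgeR adjusted p = 0.000194). In organoids 11 were lower and 1 higher (median -2.75), beside 23.1% and 24.5% of genes, led by St18 (-5.21), Lmx1a (-4.97) and Pax6 (-3.40), but 6 lower and 2 higher without the first organoid library. Organoids against assembloids gave 3 higher and 1 lower (median -0.00), beside 24.8% and 29.0% of genes, Mnx1 (3.19) and Rfx3 (2.42) up and St18 (-1.53) down, and these counts were unsteady, with 5 higher and 1 lower without the second assembloid library, 2 higher and 3 lower without the first, and 2 higher and 0 lower without the first organoid library, where St18 did not pass (edgeR adjusted p = 0.0978). Within enteroendocrine-gated cells, 9 of 12 tested were lower in assembloids (median -1.38), beside 12.3% of genes, among them Myt1 (-2.34) and Rfx3 (-1.84). The count fell to 5 of 12 with DESeq2 and without the second tissue library, and to 6 of 13 without the first.

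Of 8 further goblet and secretory-pathway factors, 5 were lower in assembloids than in tissue and none higher (median -1.21), beside 23.2% and 26.8% of all genes. Creb3l4, a relative of Creb3l1, fell from 36.4 and 37.4 CPM in tissue to 1.54 and 2.67 CPM in assembloids (-3.77, SE 0.26, edgeR adjusted p = 2.48e-05) and stood at 3.16 and 3.58 CPM in organoids (-3.21, SE 0.25, edgeR adjusted p = 3.15e-05). Foxa2 (-3.04) and Bhlha15 (-1.59) followed, the latter not called without the first assembloid (-1.38, edgeR adjusted p = 0.0549) or the second tissue library (-0.99, 0.184). In organoids 3 of the 8 were lower and 1 higher (median -0.17), beside 23.1% and 24.5% of genes, with 0 higher without the second tissue library, the others with the largest change being Klf4 (-2.86) and Foxa2 (-1.62). In organoids against assembloids 3 were higher, Creb3l2 (1.87), Bhlha15 (1.62) and Foxa2 (1.42), and 1 lower (median 0.48), beside 24.8% and 29.0% of genes, where Bhlha15 did not pass without the first organoid library (edgeR adjusted p = 0.0621). Within goblet-gated cells 3 of 8 were lower (median -0.39), beside 22.7% of genes: Creb3l4 (-2.02, SE 0.17, edgeR adjusted p = 5.33e-05), Foxa2 (-1.13) and Klf4 (-1.04). Without the second assembloid library 5 of 8 were lower (median -0.83).

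Notch ligands moved in opposite ways. Dll1, the ligand that secretory progenitors present to their neighbours, stood at 0.241 and 0.352 CPM in assembloids, 0.490 and 0.441 CPM in organoids and 8.35 and 7.55 CPM in tissue. It was lower in both cultures (-4.38, SE 0.36, edgeR adjusted p = 5.10e-05, and -3.82, SE 0.35, edgeR adjusted p = 6.84e-05) and within goblet-gated cells of assembloids (-3.75, SE 0.42, edgeR adjusted p = 0.000220). Jag2, another ligand, stood at 8.41 and 8.72 CPM, 10.51 and 17.8 CPM, and 1.13 and 1.16 CPM, and was higher in both cultures (3.29, SE 0.26, edgeR adjusted p = 4.05e-05, and 3.83, SE 0.26, edgeR adjusted p = 1.79e-05) and in goblet-gated cells (3.24, SE 0.46, edgeR adjusted p = 0.000690). Of 12 Notch genes tested, 3 were higher and 5 lower in assembloids than in tissue (median -0.64), beside 26.8% and 23.2% of all genes, Dll4 (-2.73) among the latter. In organoids 5 were higher and 2 lower than in tissue (median 0.21), beside 24.5% and 23.1%, and 5 higher and 2 lower than in assembloids (median 0.55), beside 24.8% and 29.0%. The 5 higher in organoids than in tissue became 2 without the first organoid library and 3 without the second or without either tissue library. The 2 lower became 1 against tissue without the second tissue library, and 1 against assembloids without the first organoid library, with DESeq2 or with cells of up to 5% mitochondrial UMIs. With cells of up to 20%, organoids against tissue gave 3 higher and 1 lower. Hes5, a Notch target, was among those higher in organoids, by 3.40 against tissue and 4.09 against assembloids, on 1 to 177 UMIs per library, and was not called against tissue without the first organoid (2.74, edgeR adjusted p = 0.0840) or the first tissue library (2.51, 0.0650).

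Of 5 tuft factors tested, 4 were lower in assembloids than in tissue, beside 23.2% of genes, and 3 in organoids, beside 23.1%, but 2 of 4 in assembloids without the second tissue library. In organoids 1 was left without either organoid library, without the second tissue library or with DESeq2. The differences of Spib (-4.68) and Hmx2 (-3.87) in assembloids rested on 3 and 12, and 6 and 3, UMIs there, and Spib did not pass without the second tissue library (edgeR adjusted p = 0.0706). Gfi1b, a relative of Gfi1, was at 0 UMIs in both assembloid libraries, 2 in either organoid library and 6 and 5 in tissue, so no fold is given. It is counted as lower in both cultures, but passed the filter on low counts only through tissue, the group where it is high. It was not tested in the fits without an organoid or tissue library. In organoids it was not called without that filter (edgeR adjusted p = 0.102). In organoids Spib gave -5.93, and Hmx2, at -2.07, passed neither with DESeq2 (adjusted p = 0.0520) nor without the first organoid, the second organoid or the second tissue library (edgeR adjusted p = 0.0724, 0.166 and 0.311). Sox9, which crypt base cells express as well, was the only tuft-list gene called between the cultures. It was higher in organoids by 1.17, beside 24.8% of all genes higher and 29.0% lower.

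Across 28 pools of library and cell class with at least 20 cells, the genes most like each of 4 members were ranked by Pearson's r of log2(CPM + 1), as a description, since pools of a library share its depth and culture. Atoh1 was most like Galnt5 (0.949), Creb3l4 (0.942), Pmm2 (0.934), Lypd6b (0.913) and 4930404N11Rik (0.905). Spdef was most like Fer1l6 (0.927), Tpsg1 (0.918), Qsox1 (0.902), Galnt7 (0.896) and Kdelr3 (0.895), and correlated with Atoh1 at 0.806. The genes nearest to Neurod1 were Sez6l2 (0.985), Rfx6 (0.985), Hmgn3 (0.983), Cerkl (0.983), whose reads can be split with Neurod1, and 1810006J02Rik (0.982), and Insm1 stood at 0.968. Pou2f3 had no gene as close, with A130051J06Rik (0.845), Gm43137 (0.807), Gm9774 (0.801), B020010K11Rik (0.797) and Ctsh (0.795), and no tuft pool was large enough to enter.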

How the data were processed

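The epithelium of colon tissue, organoids and assembloids (2 libraries each) and assembloid stroma (2 libraries) were measured with 10x 3' v3 kits. The authors deposited raw UMI counts per gene and cell barcode, without normalization, made per the file headers with Cell Ranger 7.1.0 for epithelium and 6.0.1 for stroma, and the submitters' processing notes name Cell Ranger 6 and mm10. Whether intron reads were counted is not given in the sources used here.

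A cell had to show 500 genes or more and no more than 10% of its counts from mitochondrial genes, the filter stated for the stroma. For the epithelium no limits are printed, though the study says that its further analyses there followed those of the stroma. More assembloid cells, and fewer tissue and organoid cells, were kept here than the study states. No doublet caller was run, and cells that passed several gates were left out of the classes. The members and gene lists were chosen with earlier results of these data known. All 10 members are named, with at most the 3 called genes of largest change per further list and comparison, and the 5 genes most like each of 4 members. A gene of a further list that this rule would name is counted with its list but not reported here.

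UMIs were summed per library, or per library and gate where at least 20 cells passed, and entered edgeR 4.0.16 in R 4.3.3 (filterByExpr, TMM, glmQLFit and glmQLFTest), with Benjamini-Hochberg adjustment over all genes tested and a threshold of 0.05. SE is the log2 fold change over the square root of F. With 2 libraries per group, p-values measure the spread between these libraries. Poisson and binomial intervals (95%) cover counting error only. On simulated data with 4-fold changes in whole libraries, 95.5%, 95.5% and 96.5% of 200 changed genes were recovered with 11, 7 and 6 false calls. Of 200 changed genes in goblet-gated cells 99.0% were recovered with 6 false calls, and of 196 in enteroendocrine-gated cells 93.9% with 8. The genes of lowest level were never among those changed, and all genes were given the same spread. Far fewer genes were changed than were called in the data. These recoveries and false calls therefore do not carry over to scarce members. Positions come from GENCODE M21 (GRCm38) and start regions from RefSeq (GRCm38.p6). Alternatives were DESeq2 1.42.0, no filter on low counts, a replicate block, each library left out, other mitochondrial, gene and gate limits, and all passing cells. Cells of at least 2000 UMIs and leaving out the cell with most UMIs of each member were added after the data had been seen.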

Additional observations from a re-analysis of the deposited data

Results flagged for a closer look

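The stromal libraries of assembloids stand outside the comparisons above and were made with another version of the counting software, so their levels are not set against the epithelium. Members were nevertheless found there above the limit that a count of 0 allows (0.0185 and 0.0215 CPM, 3 counts per library). Fibroblast-gated cells held 83.3% and 95.1% of all UMIs of the first and second library, against which the shares below are to be read. Creb3l1, which fibroblasts with active secretion also express, stood at 55.3 and 63.6 CPM over all passing cells of the first and second library, with 8499 of 8946 and 8657 of 8894 UMIs in fibroblast-gated cells. Gfi1 stood at 0.464 and 0.193 CPM, with 71 of 75 and 26 of 27 UMIs in fibroblast-gated cells, or 94.7% and 96.3%. Pou2f3 stood at 0.0989 and 0.0930 CPM, with 15 of 16 and 13 of 13 UMIs in the same cells. In the second library these shares lie near that of all UMIs.

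The other members of the goblet group sat mostly in barcodes with epithelial markers, which held 6.02% and 1.20% of all UMIs. Atoh1 stood at 0.334 and 0.165 CPM (51 of 54 and 19 of 23 UMIs in such barcodes), Spdef at 0.396 and 0.508 CPM (54 of 64 and 58 of 71) and Foxa3 at 1.19 and 0.830 CPM (161 of 192 and 99 of 116). In the first library Neurog3 stood at 0.0804 CPM and Neurod1 at 0.148 CPM, with 13 of 13 and 22 of 24 UMIs in such barcodes.

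Insm1 differed from these. It stood at 0.513 and 0.744 CPM on 83 and 104 UMIs. Of these, 27 and 1 lay in barcodes with epithelial markers, 14 and 17 in neural and glial-gated cells and 11 and 11 in fibroblast-gated cells. A further 31 and 75 lay in cells outside these classes and the immune gate, which held 10.5% and 3.41% of all UMIs. Endothelial-gated cells were not set apart there. In the 43 neural and glial-gated cells of the second library it reached 41.6 CPM.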

How the results depend on the processing

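Of the values for single members, 506 kept direction and side of the threshold under the alternatives, 28 lost and 13 gained significance and 22 changed sign, none of the last a call. In assembloids against tissue, 5 members were called at up to 20% mitochondrial counts (Foxa3, Neurod1 and Insm1 lost), and leaving out single libraries gave 4 to 9, the 4 without the second tissue library. In organoids against tissue this gave 4 to 8 and in organoids against assembloids 3 to 6, the lowest of each without the first organoid library. It gave 2 to 4 in goblet-gated cells. In enteroendocrine-gated cells it gave 0 to 2, the 1 without the first and the 0 without the second tissue library, and DESeq2 called 0 of the 2, although both had an unadjusted p under 0.05. The causes were not tested.

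The values that changed sign were those of members near no difference. Without single libraries, Neurog3 in assembloids against tissue ranged from -1.62 to 0.12 and Pou2f3 from -0.33 to 0.66. In organoids against tissue Foxa3 ranged from -0.057 to 0.51 and Pou2f3 from -0.31 to 0.34, and in organoids against assembloids Neurod1 ranged from -1.08 to 0.46 and Pou2f3 from -0.63 to 0.34. Foxa3 ranged from -0.32 to 0.20 in goblet-gated and from -1.66 to 0.0071 in enteroendocrine-gated cells. Pou2f3 moved to -0.091 in assembloids against tissue and to 0.17 in organoids against assembloids without the cell with most UMIs. In organoids against tissue it was -0.027 with DESeq2, -0.053 with the replicate block and -0.26 at up to 20% mitochondrial counts, and Foxa3 was -0.11 at up to 5%. In goblet-gated cells Foxa3 was 0.12 at up to 20%, 0.071 at 2 times the marker limit and 0.00012 with cells of several gates kept.

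Gfi1 in goblet-gated cells was also lost with DESeq2 (-0.99) and at 2 times the marker limit (-1.11), while Insm1 entered there as a higher call without the filter (4.26) and at 0.5 times the limit (3.29), on 5 and 1 UMIs in assembloids and 1 and 0 in tissue at the limit used, so that neither value is a bound. Without the first or second tissue library, 5450 and 5751 genes were called in assembloids against tissue instead of 9656, and 5351 and 5542 in organoids against tissue instead of 9184. In goblet-gated cells 2849 and 3218 were called instead of 6075, and in enteroendocrine-gated cells 878 and 885 instead of 1747, or 804 with DESeq2. Enteroendocrine-gated cells could not be fitted at up to 5% mitochondrial counts or at 2 times the limit, since an assembloid library kept under 20 cells.

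Replicate numbers are shared between groups, and the labels do not say whether they pair libraries. Deviations of same-numbered libraries correlated at 0.190, 0.235 and -0.191 across 8577 genes. With 2 libraries per group such deviations also carry depth and cell mix, so they cannot decide whether the numbers pair libraries. The replicate block called 8, 8 and 5 members over whole libraries and 3 and 2 within the gates, with Pax4 in organoids against tissue as the added call. Pax4 was added there under 7 further alternatives, and Insm1 was lost at up to 20% mitochondrial counts.

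Depth limits the scarce members, with 5 to 29 UMIs per library for Pax4, 19 to 157 for Gfi1, 26 to 567 for Neurog3 and 75 to 216 for Insm1.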

Other observations

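After each cell was thinned to 2000 UMIs and shallower cells were left out, Atoh1 was found in 0.197% and 0.342% of assembloid cells, 1.39% and 0.867% of organoid cells and 8.81% and 10.1% of tissue cells. Before thinning, the shares over all epithelial cells were 0.543% and 1.94%, 12.6% and 4.21%, and 16.5% and 19.6%. Among colonocyte-gated cells, which should lack Atoh1, the share before thinning was 5.39% and 7.41% in tissue, at a median of 17452 and 15795 UMIs per cell against 3391.5 and 3702 over all tissue cells. Spdef was found in 1.01% and 2.07% of thinned assembloid cells, 0.798% and 0.780% of organoid cells and 8.60% and 12.5% of tissue cells. Creb3l1 was found in 8.68% and 10.7%, 1.49% and 2.30%, and 41.6% and 41.8%. For Foxa3 the shares were 2.92% and 3.69%, 9.85% and 8.30%, and 7.87% and 9.75%.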
